A study of Homo sapiens with 2 samples.

Results

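Peaks of IGF2BP3 binding that contained the stop codon of a protein-coding gene were described in both replicates of a LACE-seq experiment. A peak was a member if its interval held the whole stop codon of the gene's canonical transcript in the GENCODE 44 annotation and did not also hold the canonical start codon of the same gene. The rule was met by 2647 of the 21142 peaks of replicate 1 and by 2411 of the 20799 peaks of replicate 2. Positions alone chose the members, and no enrichment value was used. Another 40 peaks of replicate 1 and 48 of replicate 2 held both the stop and the start codon of a gene and were left out.

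The samples were cells of OE-19, a human tumor line derived from esophagogastric junction adenocarcinoma, grown in RPMI medium with fetal bovine serum and given no other treatment in the labels. Both belonged to a single group, and no knockdown or control library was analysed here. In LACE-seq, RNA is crosslinked to protein by UV light, immunoprecipitated with an antibody, here against IGF2BP3, and trimmed with a nuclease, and the cDNA ends are amplified linearly before sequencing. The study calls the replicates biological, but the labels do not say whether they came from separate cultures, so every p-value measures only the difference between these peak lists.

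IGF2BP3 is an RNA-binding protein with RRM and KH domains that is known for keeping bound mRNAs stable. The study treats it as a reader of N6-methyladenosine (m6A), a modification that is known to collect near stop codons and in long exons. A stop codon ends the coding sequence, and in most genes it lies in the last exon together with the 3′ UTR. An mRNA with its stop codon further upstream carries an exon junction after it, and such mRNAs can be subject to nonsense-mediated decay.

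The stop codons below belong to genes with the strongest shared peaks and to well-known mRNAs, and they show how different the sequences under such peaks were. Each line gives 30 bases of the spliced transcript from hg38, 5′ to 3′, with the stop codon in capitals. In CCK, DNAJB6, ACTB, GAPDH and CALR a GGAC, the core letters of the m6A motif, stood within 10 bases of the first base of the stop codon. In IARS1, LDHA, NPC2, KRT8 and HNRNPC no GGAC was found within 100 bases on either side.
CCK: tgagtacccctccTAGaggacccagccgcc
DNAJB6: caaaggcaatcacTAGaccggacttgaggc
ACTB: ccgcaaatgcttcTAGgcggactatgactt
GAPDH: ggcctccaaggagTAAgacccctggaccac
CALR: caaggacgagctgTAGagaggcctgcctcc
IARS1: aacagcagacttcTAGcatgtacttatcaa
LDHA: ggagctgcaatttTAAagtcttctgatgtc
NPC2: cgtttctcatctcTAAgtgcctcattgagt
KRT8: cgtcctgcccaagTGAacagctgcggcagc
HNRNPC: cgaggatgactctTAAgcacatagtggggt

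Of 19587 canonical stop codons, 2687 (13.7%) were covered in replicate 1 and 2435 (12.4%) in replicate 2. The stop codon was covered in both replicates in 1734 genes, which is 8.85% of all stop codons and 20.6% of the 8431 genes with a peak on a canonical exon in either replicate. These 1734 genes made up 64.5% of the genes of replicate 1, 71.2% of those of replicate 2 and 51.2% of the 3388 genes of either. A further 953 stop codons were covered only in replicate 1 and 701 only in replicate 2. Some genes share a stop codon, as do the UGT1A genes, which are spliced onto the same last exons, so the covered stops were 2655 distinct positions in replicate 1, 2419 in replicate 2 and 1722 in both. The study's RNA-seq of this line was not used here, so stronger binding per molecule and a more abundant mRNA cannot be told apart in any of the values below.

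All 6 epithelial markers of the line (KRT8, KRT18, KRT19, EPCAM, CDH1 and ERBB2) had a peak on a canonical exon in both replicates. Of 11 markers of immune, stromal, endothelial, blood and liver cells, 0 had such a peak in replicate 1 and 1, COL1A1, in replicate 2.

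Stop-codon peaks were wider and held more reads than the rest. Their median width was 535 bp in replicate 1 and 521 bp in replicate 2, against 325 and 328 bp for the other peaks that touched an exon of a coding gene and held no start codon. A wide peak is more likely to contain any given base, so part of this difference follows from the rule. The median read pileup at the summit, recovered from the deposited fold and p-value, was 35 and 36 reads, against 23 and 22 for those other exon-touching peaks. The median fold enrichment was close in both classes, at 6.96 and 7.02 for stop-codon peaks and at 6.72 and 6.93 for the other exon-touching peaks. The precision of each value is limited by these pileups, since the total number of reads is unknown.

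The first comparison asked whether peaks on stop codons recurred in the other replicate. In replicate 1, 2024 of 2647 stop-codon peaks (76.5%, Wilson 95% interval 74.8 to 78.0) recurred, that is, shared 1 bp or more with a peak of the other list. Among the other exon-touching peaks the share was 7339 of 12927 (56.8%, interval 55.9 to 57.6). The difference was 19.7 percentage points (two-sided Fisher's exact test, Benjamini-Hochberg adjusted p = 3.12e-83 over 6 tests). In replicate 2, 81.4% of stop-codon peaks (interval 79.8 to 82.9) and 59.2% of the other exon-touching peaks (interval 58.4 to 60.1) recurred, a difference of 22.2 points (two-sided Fisher's exact test, adjusted p = 6.45e-102). Peaks are not independent replicates, and the intervals hold counting error only.

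Width and depth moved with this result. The rule favors wide peaks, and the part of width in the full difference was not tested. Under 300 bp, 35.7% of stop-codon peaks and 35.4% of the other exon-touching peaks of replicate 1 recurred. In replicate 2 these shares were 56.4% and 39.65%. Among peaks of 300 to under 400 bp, 59.9% of stop-codon peaks (interval 55.7 to 63.9) and 57.4% of the other exon-touching peaks (interval 56.1 to 58.7) of replicate 1 recurred, and in replicate 2 these shares were 70.2% and 59.4%. Among peaks of 600 bp or more the shares were 93.6% and 89.1% in replicate 1 and 92.5% and 87.8% in replicate 2. At 15 to 36 reads at the summit the shares were 69.1% and 55.7% in replicate 1 and 73.5% and 59.4% in replicate 2. Among the weakest peaks, with up to 14 reads, 35.2% of stop-codon peaks (interval 29.9 to 40.9) and 37.3% of the others (interval 35.6 to 39.1) recurred in replicate 1, and 59.6% (interval 53.7 to 65.3) and 40.1% in replicate 2. At 15 to 36 reads the differences were 13.4 and 14.1 points (two-sided Fisher's exact test, adjusted p = 8.35e-17 and 5.63e-17). Among peaks of 300 to under 500 bp they were 4.58 and 13.9 points (the same exact test, adjusted p = 0.00716 and 3.25e-17). Both limits were added after seeing the data, and the other bands were not tested.

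Against start-codon peaks the replicates went in opposite directions, and no difference was called. The recurrence of stop-codon peaks minus that of start-codon peaks was −3.39 percentage points in replicate 1 (two-sided Fisher's exact test, adjusted p = 0.00947) and 24.8 points in replicate 2 (two-sided Fisher's exact test, adjusted p = 4.47e-81). The number of start-codon peaks differed more between the lists than that of stop-codon peaks. Start codons were held by 1668 peaks (7.89%) of replicate 1 and 2583 peaks (12.4%) of replicate 2 (two-sided Fisher's exact test, adjusted p = 2.05e-53). The share of stop-codon peaks was 12.5% (interval 12.1 to 13) in replicate 1 and 11.6% (interval 11.2 to 12) in replicate 2, a difference of 0.93 points (two-sided Fisher's exact test, adjusted p = 0.00435). In either replicate 3114 start codons were covered, and 1229 of them (39.5%) were covered in both.

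For the 1734 shared genes the peaks of the replicates lay close to each other. Their summits were 47 bp apart at the median, with quartiles of 11 and 162 bp, and in 1510 genes (87.1%) each peak overlapped at least 50% of the other. Across these genes, which are not independent replicates, Spearman's rho between the replicates was 0.67 for fold enrichment and 0.75 for the pileup. Genes covered in only 1 replicate had weaker peaks. The median pileup was 24 reads for the genes covered only in replicate 1 and 25 for those covered only in replicate 2, against 42 and 41 reads at the shared stops. Of the genes covered only in replicate 1, 22.5% had no peak on a canonical exon in replicate 2, and 24.5% had a replicate 2 peak within 100 bp of the stop codon that did not contain it. For genes covered only in replicate 2 these shares were 29.7% and 22.5%.

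**Figure D1:**
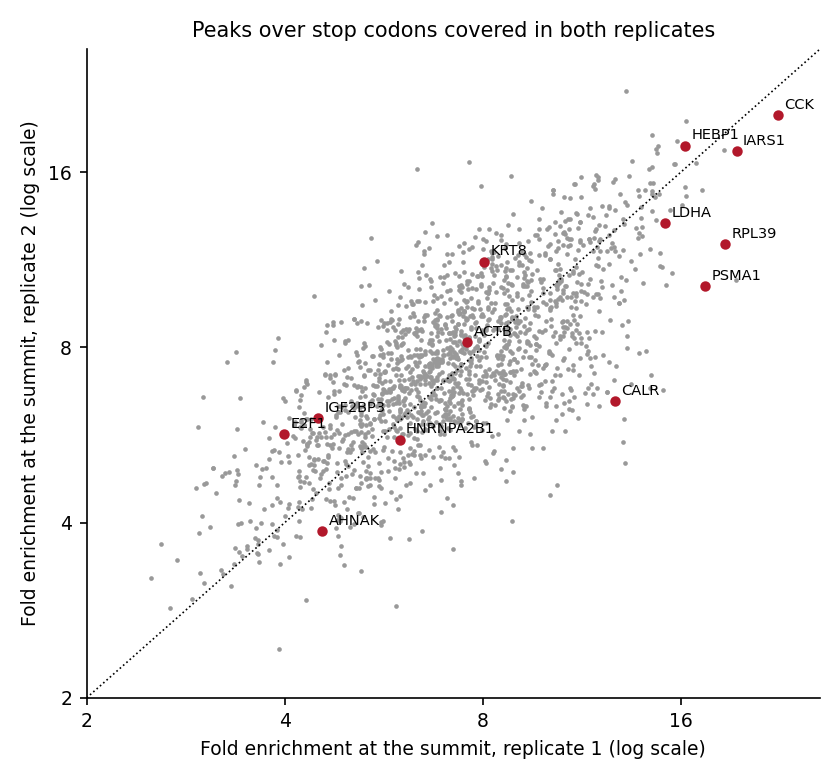
Fold enrichment at the summit of the peak over the stop codon in replicate 1 (x axis) and replicate 2 (y axis), both on a log scale, for the 1734 genes covered in both. Each gray point is a gene, red points are genes described in the text, and the dotted line marks equal values; CCK was near the top in both replicates, while CALR and PSMA1 lay below the line.

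The second comparison asked which transcript structures carried the covered stop codons. Coverage differed by the exon that holds the stop codon. Of 17576 stop codons in the last exon of a spliced transcript, 2637 (15%, interval 14.5 to 15.5) were covered in replicate 1 and 2386 (13.6%, interval 13.1 to 14.1) in replicate 2. Of 851 stop codons in the exon before the last, 17 (2.0%, interval 1.25 to 3.18) and 21 (2.47%, interval 1.62 to 3.74) were covered. Among genes with a peak on any canonical exon, 21.7% of stops in the last exon and 2.95% of stops in the exon before the last (interval 1.61 to 5.34) were covered in both replicates. In single-exon genes 33 (3.01%) and 27 (2.46%) of 1098 stops were covered. Only 18.9% of these genes had an exonic peak, and of those 15.9% and 13% had a covered stop, while peaks that held both their start and stop codon were left out by the rule. Of 21 stop codons split by an intron, where a peak has to span the intron to meet the rule, 0 were covered in either replicate, which allows a share of up to 15.5% by the Wilson interval.

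Where the stop codon lay in the exon before the last, peaks were found on the last exon instead. At 100 nt into the last exon, which holds only 3′ UTR in these genes, 118 of 835 transcripts (14.1%, interval 11.9 to 16.7) were covered in replicate 1 and 91 (10.9%, interval 8.96 to 13.2) in replicate 2. Both shares were above those at the stop codons of the same genes.

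Within the last exon, coverage of the stop codon differed with the number of coding bases before it. With fewer than 50 coding bases, 15.65% of 1802 stops were covered in replicate 1 and 14.65% in replicate 2. With 50 to under 100 coding bases before the stop, 19.1% of 2875 stops (interval 17.7 to 20.6) were covered in replicate 1 and 16.6% (interval 15.2 to 18.0) in replicate 2. With 100 to under 200 coding bases the shares were 18.1% and 16% of 6020 stops. They were 8.11% in both replicates for the 2354 stops with 400 to under 1000 coding bases. With 1000 or more coding bases, 75 of 1391 stops (5.39%, interval 4.32 to 6.71) and 61 stops (4.39%, interval 3.43 to 5.59) were covered. Genes named ZNF, described below, have a median of 1376 coding bases there, and their part in the value of this class was not tested. Among genes with a peak on any exon the classes under 400 coding bases lay close together, between 22.7% and 24.5% covered in both replicates, and the share was 14.6% at 400 to under 1000 and 8.64% at 1000 or more.

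The length of the 3′ UTR showed a maximum rather than a steady rise. Stops followed by fewer than 200 nt of 3′ UTR were covered in both replicates in 1.90% of 2896 transcripts. The share was 7.71% at 200 to under 500 nt, 12.2% at 500 to under 1000 nt and 12.4% at 1000 to under 2000 nt, and it was lower again at 4000 nt or more, at 6.49%. The 500 to under 1000 and 1000 to under 2000 nt classes overlapped in their intervals (11.1 to 13.4 and 11.4 to 13.4). Among genes with an exonic peak the share was 8.12% under 200 nt and 22.9% at 200 to under 500 nt. It was largest at 500 to under 1000 nt, at 28.15%. From there it fell to 25.3% at 1000 to under 2000 nt, 18.6% at 2000 to under 4000 nt and 11.7% at 4000 nt or more. With both measures combined, 15.7% of stops with fewer than 200 coding bases and 500 to under 2000 nt of 3′ UTR were covered in both (638 of 4065), against 1.88% of stops with 400 or more coding bases and fewer than 500 nt of 3′ UTR (17 of 905). At shared stops in last exons the median was 138 coding bases and 1244 nt of 3′ UTR. It was 155 coding bases and 1622 nt in genes that had an exonic peak but no covered stop.

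**Figure D2:**
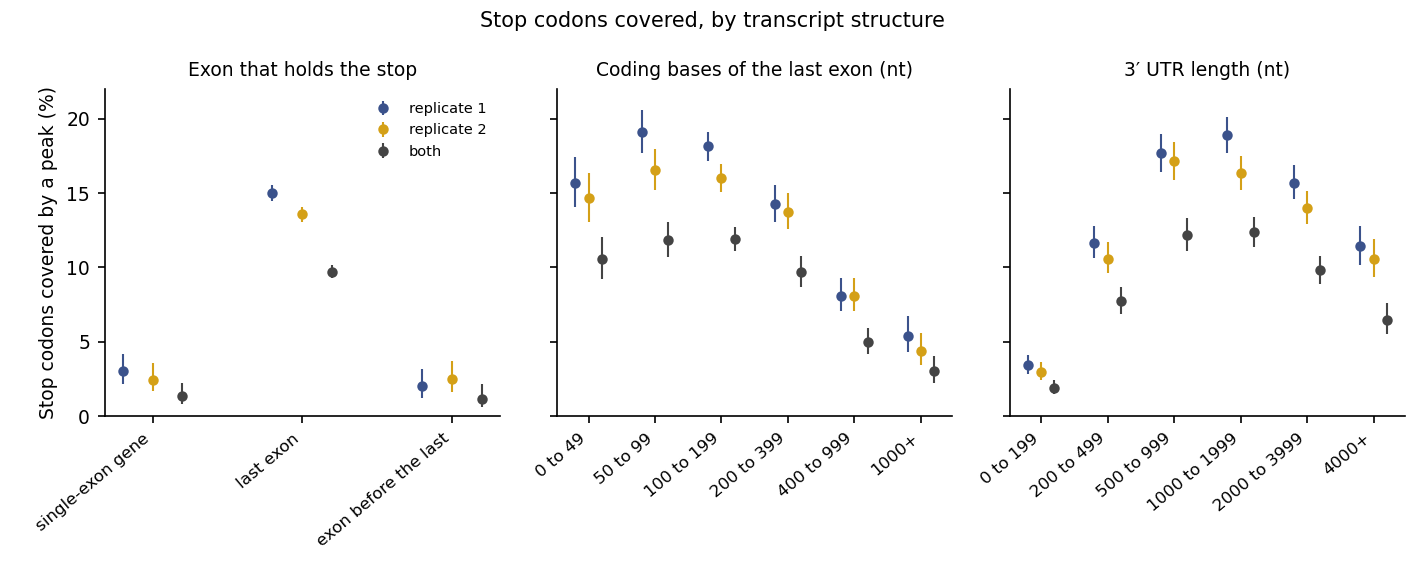
Percent of canonical stop codons covered by a peak (y axis) by the exon that holds the stop, by the coding bases of the last exon before the stop and by 3′ UTR length, with Wilson 95% intervals as bars. Blue, yellow and gray points are replicate 1, replicate 2 and both; coverage was 15% and 13.6% in last exons against 2.0% and 2.47% in the exon before the last.

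The profile along the spliced transcript showed where coverage by peaks rose along the exons. It was computed for 6696 transcripts with at least 1000 coding bases and 1000 nt of 3′ UTR whose stop codon lies in the last exon. At 50 nt before the last exon, 2.65% of transcripts (interval 2.29 to 3.06) were covered in replicate 1 and 2.26% (interval 1.93 to 2.64) in replicate 2. At 100 nt after its start the shares were 18.4% (interval 17.5 to 19.4) and 18.4% (interval 17.5 to 19.3). At the stop codon itself they were 16.8% and 15%. In this profile the step stood at the start of the last exon and not at the stop codon. Peaks are genomic intervals, and most stop-codon peaks ran on into the intron before the last exon. Intron bases drop out of a spliced profile, so a step at an exon junction can follow from this in part. Its share in the step was not tested.

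Transcripts with long coding stretches in the last exon separated these positions. In the 863 transcripts with 400 to under 1000 coding bases there, coverage at 300 nt before the stop codon was 18.4% (interval 16 to 21.1) in replicate 1 and 22.5% (interval 19.8 to 25.4) in replicate 2. At the stop codon it had fallen to 11.8% (interval 9.83 to 14.1) and 10.8% (interval 8.88 to 13). In the 2194 transcripts with 100 to under 200 coding bases, coverage was 2.78% and 1.91% at 200 nt before the stop, which is still in an upstream exon, and 21% and 18.1% at the stop. In the 878 transcripts with 1000 or more coding bases, 12.1% and 13.1% were covered at 500 nt before the stop and 5.92% and 3.99% at the stop.

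**Figure D3:**
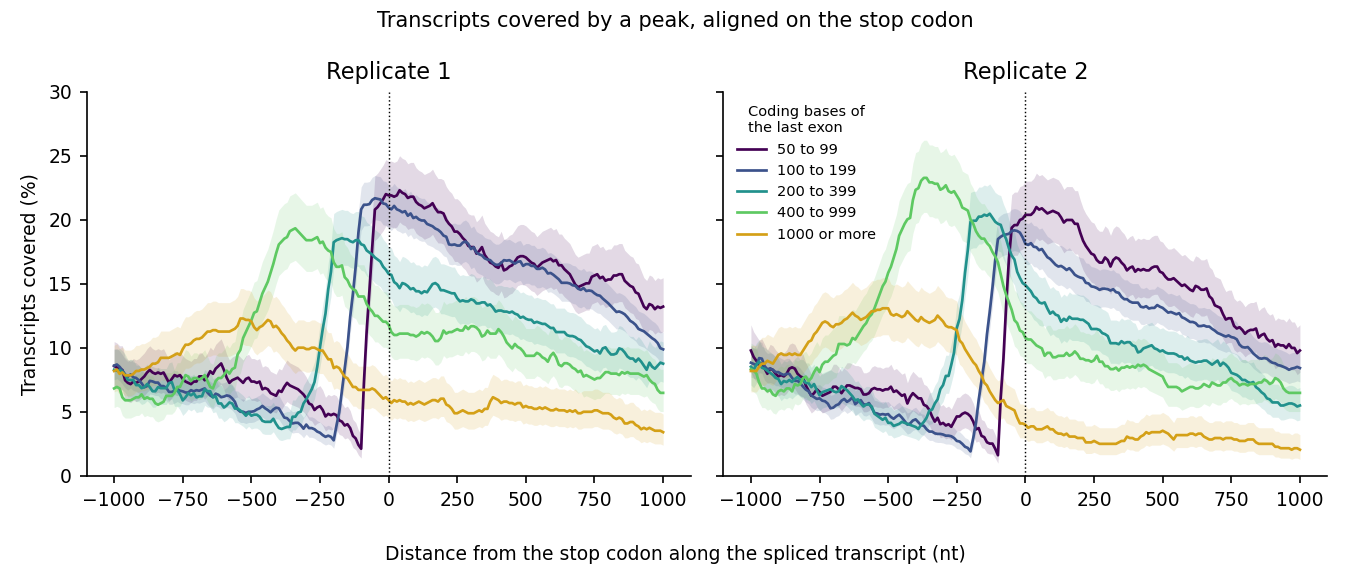
Percent of transcripts covered by a peak (y axis) against the distance from the stop codon in nt along the spliced transcript (x axis), in replicate 1 (left) and replicate 2 (right). Lines are classes with 50 or more coding bases in the last exon, with Wilson 95% bands; the rise moved upstream of the stop codon as the coding part of the last exon grew, and with 400 to under 1000 coding bases coverage was 18.4% and 22.5% at 300 nt upstream and 11.8% and 10.8% at the stop.

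**Figure D4:**
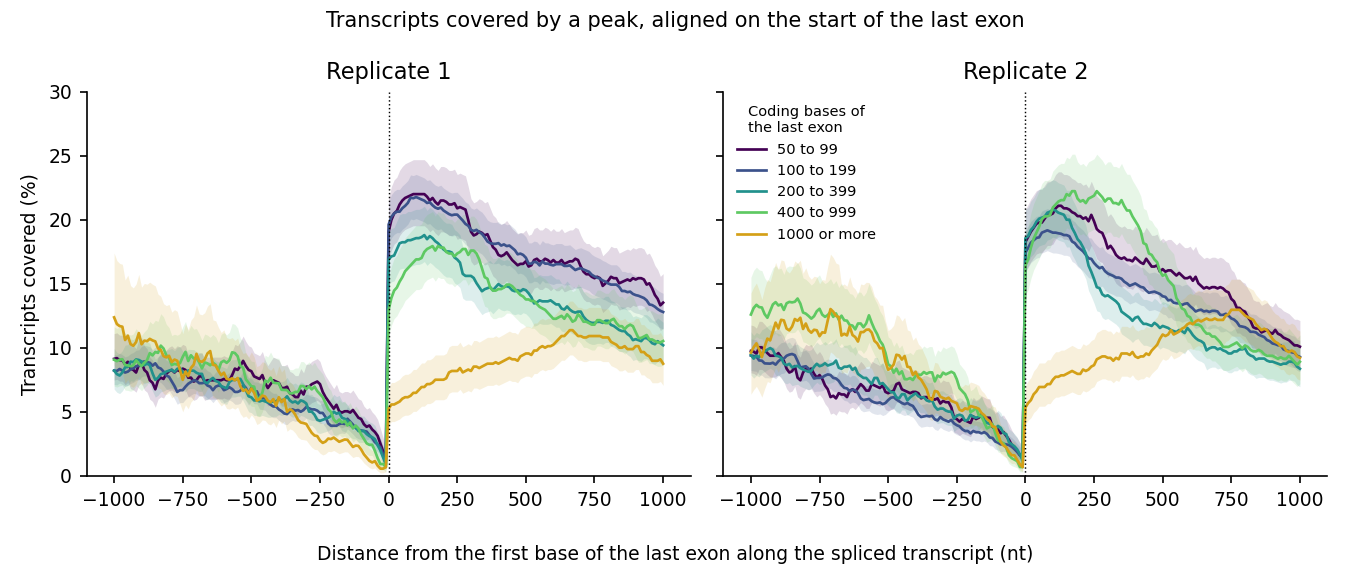
The same transcripts and classes aligned on the first base of the last exon (x axis, nt along the spliced transcript; y axis, percent of transcripts covered). Points with fewer than 200 transcripts are not drawn, and all classes drawn rose at 0. The class with 1000 or more coding bases rose to a lower level, 6.49% and 7.52% at 100 nt after the start, from 1.16% and 1.62% at 50 nt before it.

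Long exons inside the coding sequence were covered at least as often as last exons. At 100 nt after the start of internal coding exons of 400 nt or more, 727 of 3330 (21.8%, interval 20.5 to 23.3) were covered in replicate 1 and 729 (21.9%) in replicate 2. Last exons of 400 nt or more that hold the stop codon were covered there in 18.0% (interval 17.4 to 18.7) and 17.6% of 15119 cases. In genes that have both, the internal exons gave 22.7% in both replicates and the last exons 18.0% and 18.2%. Coverage at the middle of an internal coding exon was 3.48% and 3.20% for exons of 50 to under 200 nt, 9.34% and 8.97% for 200 to under 400 nt, 21.6% and 22.8% for 400 to under 1000 nt, and 18.8% and 18% for 1000 nt or more. Coverage of internal coding exons was thus higher in long than in short exons, with no further rise above 1000 nt. These profiles were added after the coverage by structure had been seen, and no test was run on them.

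Most stop-codon peaks reached from the stop codon back over the start of the last exon. The upstream peak edge lay before the first base of the stop exon in 79.7% of the stops covered in last exons in replicate 1 and 80.1% in replicate 2, and then extended a median of 142 and 143 bp into the intron. Only 6.64% and 7.96% of these peaks reached the exon before. The summit lay upstream of the stop codon for 54.3% of covered stops (interval 52.4 to 56.2) in replicate 1 and 54.8% (interval 52.8 to 56.8) in replicate 2, and the median distance from the stop to the summit was −19 bp in both, a negative value being upstream. It lay in the coding part of an exon for 48.1% and 48.4%, in the 3′ UTR for 44.7% and 43.8%, and in an intron or outside the transcript, upstream of the stop, for 6.74% and 7.10%. Peaks were deposited without a strand, and the strand of the gene was used throughout. An exon of a gene on the opposite strand overlapped 140 covered stops of replicate 1 and 137 of replicate 2, and there the reads could come from either gene.

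The genes with the largest fold enrichment at a shared stop codon had varied functions. CCK, which encodes the peptide hormone cholecystokinin, was first, with its stop codon at chr3:42258098-42258100 on the minus strand. The fold was 22.4 in replicate 1 and 20.1 in replicate 2, with 99 and 88 reads at the summit, which lay at −28 and −34 bp from the stop. Its last exon of 406 nt holds 131 coding bases and a 3′ UTR of 272 nt, and the stop peak was 567 and 607 bp wide.

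IARS1, the cytosolic isoleucyl-tRNA synthetase, had a fold of 19.4 and 17.4 with 154 and 69 reads (stop at chr9:92210807-92210809, minus strand). It had 14 peaks on its exons in replicate 1 and 12 in replicate 2, so the stop peak was 1 of many. NDUFA4, a mitochondrial respiratory chain protein, had a fold of 18.6 and 17.5 with 52 and 35 reads (chr7:10933636-10933638, minus strand). ANXA5, the phospholipid-binding annexin A5, had 16.3 and 19.6 (chr4:121668468-121668470, minus strand), and its summit lay at the same base in both replicates, at −24 bp. HEBP1, a heme-binding protein, had 16.2 and 17.8 (chr12:12975308-12975310, minus strand). EIF4G3, a scaffold of the translation initiation complex, had 15.8 and 18.1 (chr1:20807319-20807321, minus strand), among 20 and 21 peaks on its exons. The lower of the within-list percentiles of fold was 98.5 or more for CCK and for each of these genes.

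DNAJB6, a chaperone of the heat shock protein 40 family, had 15.7 and 16.5 (chr7:157416096-157416098, plus strand), PTDSS1, a phosphatidylserine synthase, 15.6 and 16.5, and CAPNS1, the small calpain subunit, 14.7 and 17.8. The lysosomal genes CTSH, a cathepsin, and NPC2, a cholesterol carrier, had a fold of 14.7 and 17.2 and of 14.5 and 16.3. NPC2 has only 12 coding bases in its last exon of 349 nt, and CAPNS1 has 24. NPIPB12 and NOMO2, with 16.9 and 16.6 and with 14.5 and 18.5, belong to families of near-identical genes. The 31 bases around their stop codons occur 6 and 3 times in the genome, so these peaks cannot be given to 1 copy. Such repeated stops made up 6.22% of the covered stops of replicate 1 and 4.76% of those of replicate 2, against 7.53% of all stops. The stop sequences of KRT8, PGAM1, HSPD1, AURKA, CTBP2 and HNRNPC, described below, each occur 2 times. Further cases are given with their genes.

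The counts of the gene lists below are read against the 8.85% of all stops, and the 20.6% of stops of genes with an exonic peak, that were covered in both replicates. Glycolytic enzymes had the largest share of the 15 lists, with the stop codon covered in both replicates in 9 of 17 genes (52.9%, interval 31 to 73.8) and in 9 of the 15 with an exonic peak. These were ALDOA, ENO1, GAPDH, GPI, HK1, LDHA, PGAM1, PGK1 and PKM. At the stop of LDHA, lactate dehydrogenase A, the fold was 15.1 in replicate 1 and 13.1 in replicate 2, with 62 and 49 reads and the summit 134 and 30 bp downstream (chr11:18407279-18407281, plus strand). GPI, glucose-6-phosphate isomerase, had 8.30 and 10.3, with summits at −81 and 28 bp from the stop. GAPDH had 8.96 and 11.4, but its peaks of 902 and 849 bp had their summits far upstream, at −475 and −483 bp, and the bases around its stop codon occur 5 times in the genome, as processed copies of it are common. PGAM1 had 8.85 and 8.95 with 19 reads in both replicates.

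Translation factors had 12 of 46 stops covered in both replicates (26.1%, interval 15.6 to 40.3), which is 12 of the 40 with an exonic peak (interval 18.1 to 45.4%, which includes the 20.6% of all such genes). Beside EIF4G3 these included EIF2S2, the beta subunit of eIF2, with a fold of 11.8 and 12.3, EEF1G, an elongation factor subunit, with 11.3 and 14.5, and the cap-binding protein EIF4E with 9.0 and 8.35. The 31 bases around the stop codons of EIF2S2, EIF4E and EEF1G occur 5, 4 and 2 times. Cytosolic ribosomal proteins, which belong to the same machinery, had 3 of 79 stops covered in both (3.8%, interval 1.3 to 10.6), although 63 had a peak on some exon. Their median last exon was 236 nt with a 3′ UTR of 112 nt, and the translation factors had 905 and 801 nt. Of the covered ribosomal proteins, RPL22 and RPS14 have canonical 3′ UTRs of 1652 and 1651 nt. RPL39, with one of 180 nt, had a fold of 18.7 and 12. The 31 bases around the stop codons of RPL22, RPS14 and RPL39 occur 3, 2 and 7 times in the genome.

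Keratin and junction genes, which mark an epithelial line, had 8 of 25 stops covered in both (32.0%, interval 17.2 to 51.6). This is 34.8% of the 23 with an exonic peak (interval 18.8 to 55.1%, which includes the 20.6% of all such genes). The 8 genes included CDH1, DSG2, JUP and KRT8. KRT8, a keratin of simple epithelia, had 119 reads at the summit in replicate 1 and 180 in replicate 2, with a fold of 8.03 and 11.2 and the summit at −100 and −108 bp. DSG2, a desmosomal cadherin with 1020 coding bases in its last exon, had peaks of 1366 and 1276 bp over its stop. Another 5 genes of the list, including EPCAM and CLDN4, were covered only in replicate 1, and KRT19 only in replicate 2.

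Heat shock proteins and chaperonins had 7 of 30 stops covered in both (23.3%, interval 11.8 to 40.9). This is 7 of the 25 with an exonic peak (interval 14.3 to 47.6%, which includes the 20.6% of all such genes). Among the covered genes CALR, the endoplasmic reticulum chaperone calreticulin, had a fold of 12.7 with 114 reads in replicate 1 and 6.47 with 53 reads in replicate 2. The mitochondrial chaperone HSPD1 had 8.29 and 7.24, with summits at −9 and −10 bp. Proteasome subunits were near the share of all genes, with 4 of 32 (12.5%, interval 4.97 to 28.1 against 8.85%) and 17.4% of the 23 with an exonic peak against 20.6%. PSMB5, a catalytic subunit, had a fold of 14.5 and 13.7, and PSMA1 had 17.4 and 10.2.

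Wnt pathway genes had 9 of 39 stops covered in both (23.1%, interval 12.7 to 38.3), namely AXIN2, CSNK1A1, CSNK1D, CTBP1, CTBP2, GSK3A, RNF43, TBL1XR1 and TLE1. This is 27.3% of the 33 with an exonic peak (interval 15.1 to 44.2%, which includes the 20.6% of all such genes). GSK3A, a kinase of the beta-catenin destruction complex, had 88 and 90 reads at the summit. The corepressors CTBP2 and CTBP1 had a fold of 9.05 and 7.93 and of 6.59 and 7.15. In TGF-beta and BMP signaling 2 of 30 were covered in both (6.67%, interval 1.85 to 21.3), the receptor ACVR1 and the inhibitor SMAD7. SMAD7 had peaks of 1672 and 1623 bp over a last exon with 536 coding bases.

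Cell cycle regulators had 15 of 72 stops covered in both (20.8%, interval 13.1 to 31.6). This is 30% of the 50 with an exonic peak (interval 19.1 to 43.8%, which includes the 20.6% of all such genes). Of these 15, 5 were 14-3-3 proteins of the YWHA family, which bind phosphorylated cell cycle proteins, and SFN is a further 14-3-3 protein. YWHAE had 157 and 82 reads, with the summit at the same base in both replicates, 550 bp downstream of the stop. The kinase AURKA had a fold of 9.46 and 11.2, and MCM3, a subunit of the replicative helicase, 10.4 and 9.69 with summits 13 and 5 bp downstream of the stop.

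Of the 8 G1-S genes that the study followed, E2F1 alone had its stop codon covered in both replicates (12.5%, interval 2.24 to 47.1, against 8.85% of all stops). Taken by replicate, 5 of the 8 (62.5%) were covered in replicate 1 and 1 (12.5%) in replicate 2, against 13.7% and 12.4% of all stops. The difference between the replicates was not tested. E2F1, a transcription factor that drives S-phase genes, had a fold of 4.0 with 25 reads in replicate 1 and 5.67 with 24 reads in replicate 2 (stop at chr20:33676732-33676734, minus strand). In CDC25A, the phosphatase that activates cyclin-dependent kinases, the stop codon at chr3:48158945-48158947 (minus strand) was covered in replicate 1 only, by a peak with 13 reads, a fold of 5.89 and its summit at −44 bp. The single exonic peak of CDC25A in replicate 2 lay 29041 bp from the stop codon and had 7 reads. CDK4 had 41 reads and a fold of 8.90 in replicate 1 and no peak on its exons in replicate 2, and an exon of another gene lies opposite its stop codon. CCNE2 with 22 reads and WEE1 with 13 were also covered only in replicate 1, and an exon of another gene lies opposite the CCNE2 stop codon too. CHEK2 had 1 exonic peak away from its stop, in replicate 1, and CDC6 and E2F3 had none. The 31 bases around the CHEK2 stop codon occur 9 times in the genome, which limits what the absent peak there means.

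Of 13 mRNAs described earlier as IGF2BP targets, ACTB was the only 1 with a covered stop codon, and it was covered in both replicates. This is 7.69% of the 13 (interval 1.37 to 33.3) and 12.5% of the 8 with an exonic peak (interval 2.24 to 47.1). These intervals include the shares of all genes, 8.85% and 20.6%. The ACTB peaks were 1451 and 1462 bp wide with 174 and 173 reads, and their summits lay at −829 and −818 bp along the genome. MYC and CCND1 had peaks on their last exons, but none of these contained the stop codon. In MYC the nearest peak edge lay 31 bp from the stop in replicate 1, with 81 reads, and 210 bp in replicate 2, with 57 reads. In CCND1, cyclin D1, it lay 507 bp away in replicate 1 and 3 bp away in replicate 2, with 99 and 77 reads.

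Of 37 hnRNP and SR splicing factors, 13 stops (35.1%) were covered in replicate 1 and 5 (13.5%) in replicate 2, against 13.7% and 12.4% of all stops, and the difference between the replicates was not tested. These 5 (HNRNPA0, HNRNPA2B1, HNRNPC, HNRNPU and HNRNPUL1) were all shared, which is 13.9% of the 36 with an exonic peak. The 8 covered only in replicate 1 included HNRNPK, PCBP2 and SRSF1. Among 21 m6A writers, erasers and readers, HNRNPA2B1, YTHDF3 and IGF2BP3 were covered in both replicates (14.3%, interval 4.98 to 34.6, against 8.85% of all stops). This is 3 of the 17 with an exonic peak (17.65%, against 20.6% of all such genes). IGF2BP3 itself had a fold of 4.49 with 31 reads in replicate 1 and 6.05 with 23 reads in replicate 2, and its summits lay at −60 and −4 bp from the stop codon at chr7:23312362-23312364. HNRNPC had 63 and 46 reads. IGF2BP2 was covered in replicate 2 only, and IGF2BP1 in neither.

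**Figure D5:**
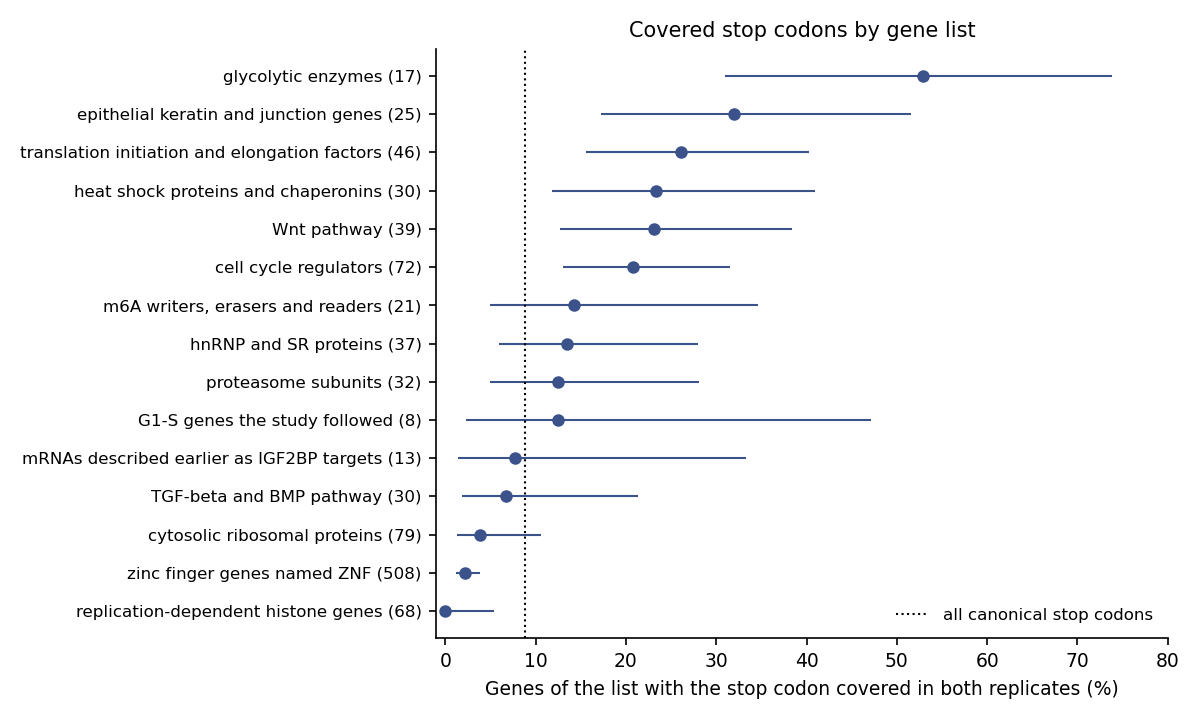
Percent of the genes of each list whose stop codon was covered in both replicates (x axis), with Wilson 95% intervals, for 15 lists with the number of genes in parentheses (y axis). The dotted line is the share over all canonical stop codons, 8.85%; glycolytic enzymes stood at 52.9% and replication-dependent histone genes at 0%.

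The gene families with unusual last exons were at the low end. Genes named ZNF, most of which encode zinc finger proteins, had 11 of 508 stops covered in both (2.17%, interval 1.21 to 3.84), and 169 had an exonic peak. Their last exons hold a median of 1376 coding bases. ZNF410, with 36 coding bases in its last exon, had a fold of 9.34 and 8.19 with 16 and 12 reads. An exon of another gene lies opposite the ZNF410 stop codon. ZNF652, with 509 coding bases, had 7.96 and 10.7 with 111 and 95 reads. ZNF787, with 1067, had 7.17 and 8.47 with 45 and 59 reads, and ZNF768, with 1532, had 7.07 and 7.78 with 27 and 45 reads. Replication-dependent histone genes, which are short and mostly intronless and end without a poly(A) tail, had 0 of 68 covered in both replicates, which allows a share of up to 5.35% by the Wilson interval. In 8 of them a peak held both the start and the stop codon and was left out by the rule. H2AC25 was covered in replicate 1 and H3C15 in replicate 2.

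A few covered stop codons went against the common structure. The 3 with the longest coding parts before the stop belonged to AHNAK and AHNAK2, giant scaffold-like proteins, and EVPL, the cornified envelope protein envoplakin, with 17328, 16734 and 3438 coding bases in the last exon. AHNAK had a fold of 4.56 and 3.86 with 102 and 60 reads, AHNAK2 8.67 and 4.71 with 46 and 40, and EVPL 4.36 and 4.69 with 51 and 61. Another 10 shared stops lay upstream of the last exon, all in the exon before it. BSG, the membrane glycoprotein basigin, had the largest fold of these, 9.18 and 11.1, with 80 and 108 reads. In HNRNPA2B1, where the canonical transcript places the stop in exon 10 of 11, the fold was 5.98 and 5.55. ANK3, TCF20, INPP5A and EPHA4 had between 9 and 35 reads at the summit.

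The last comparison was of sequence. Windows of spliced transcript reaching 50 nt to either side of the middle base of the stop codon were searched on the transcript strand, and 18872 transcripts had a full window. GGAC occurred in 41.2% of 1727 windows at shared stops (interval 38.9 to 43.6), in 41.5% of 1646 windows at stops covered in 1 replicate only (interval 39.1 to 43.9), in 36% of 4947 windows of genes with an exonic peak but no covered stop (interval 34.7 to 37.4), and in 36.6% of all windows. In the same order, the longer TGGAC, which contains GGAC, occurred in 14.1%, 15.9%, 13.1% and 12.8%, and ACACA in 10.5%, 10.5%, 9.44% and 9.66%. AAAAA occurred in 8.69% at shared stops, 13% at stops covered in 1 replicate, 18.6% where the gene had an exonic peak but no covered stop, and 15.8% of all windows. The median GC content of the windows was 56.4%, 53.5%, 47.5% and 50.5%, and its part in the motif shares was not tested. A match is only a run of letters and not a binding or m6A site.

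The stop codon in use differed in the same way. TGA was used at 53.9% of shared stops (interval 51.6 to 56.3) and 53.1% of those covered in 1 replicate only, against 47.8% in genes with an exonic peak but no covered stop and 49.3% of all. TAA was used at 22.8%, 24.1%, 30.5% and 28.3%, in the same order. In replicate 2, 9.01% of TAA stops (interval 8.28 to 9.79) and 13.9% of TGA stops were covered. In replicate 1 these shares were 12.4% (interval 11.6 to 13.3) and 14.5%. At TAA stops the intervals of replicates 1 and 2 were apart, but this difference was not tested. TAA is the stop codon without G or C, and the part of base composition in this was not tested.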

How the data were processed

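The data were 2 lists of IGF2BP3 LACE-seq peaks, 1 per replicate of a single group, in hg38. The study's methods name Bowtie and Piranha, whereas the submitters' processing notes name fastp, HISAT2 and MACS2 without versions, and the file layout is that of MACS. Which aligner was used, and whether reads were spliced across junctions, was not settled. The narrowest peaks were 293 and 294 bp. The authors deposited the fold (a ratio of the summit to its local background) and p-values and q-values on the −log10 scale. The deposited score column was not used.

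Peaks were placed on the Ensembl canonical transcripts of protein-coding genes in GENCODE 44, of which 19587 had a complete stop codon after the copies of pseudoautosomal genes on Y were left out. An exonic peak touches a canonical exon by at least 1 bp. The read pileup at each summit was recovered as the whole number that fits the deposited fold and p-value under a Poisson model, within 0.01 for every peak. Shares were compared by Fisher's exact test with Benjamini-Hochberg adjustment over 6 tests (scipy 1.17.1), and a result was called if it passed 0.05 in both replicates in the same direction. All else is description with Wilson 95% intervals, which cover counting error only. The functions were tested on simulated data. Coordinates are 1-based.

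Named genes were the 8 G1-S genes, MYC and CCND1, the 15 shared stops of largest fold by the lower within-list percentile, up to 4 genes per list, the 3 with the most coding bases in the last exon and up to 6 whose stop lies upstream of it. Other genes were named only as members of lists. The members, lists and tests were chosen with earlier results of these data known. Alternatives changed the overlap, the peaks, the transcripts, what counts as covered, overlapping genes, repeated sequence and the replicates used. Limits on peak width and pileup, the profiles by class and the internal exons were added after seeing the data.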

Additional observations from a re-analysis of the deposited data

How the results depend on the processing

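Values here are means of both replicates where each has one, and the alternatives listed moved a percentage beyond the SD of the replicates or a count by over 1.5 times. Requiring the stop codon within 150 bp of the summit lowered the genes covered from 2561 to 1656 and those covered in both from 1734 to 901. Under the other alternatives these counts moved by less, and lay between 2020 and 2790 and between 1348 and 1914. The share of peaks on a stop codon, 12.1%, became 7.82% with that rule, 10.4% with the stop at least 50 bp inside the peak, 15% with a −log10 q of 10 or more, 13.3% with all transcripts, 10.9% without stops in exons of other genes and 11.4% without repeated sequence. Under the first 3 of these, coverage in the last exon (14.3%) was 9.25%, 12.4% and 11.3%, and in the exon before it (2.23%) 1.41%, 1.59% and 1.41%. With 50 to under 200 coding bases (17.3%) it was 12.4%, 15.1% and 13.7%, and with 1000 or more (4.89%) 2.23%, 4.03% and 3.95%. The share of summits upstream of the stop (54.5%) was 63.0%, 52.7% and 54.2%, and 52.1% with all transcripts. Coverage stayed higher in the last exon than in the exon before it, and with 50 to under 200 than with 1000 or more coding bases, under each of these 3, and the other structure classes were not recomputed. The recurrence difference from other exon-touching peaks (20.9 points) lay between 9.25 points in peaks of 300 to under 500 bp, a limit added after seeing the data, and 22.2. Peaks under 300 bp were not among these alternatives, and there the shares in replicate 1 were 35.7% for stop-codon peaks and 35.4% for the others. The difference from start-codon peaks, which was not called, averaged 10.7 points and ranged from −3.39 without replicate 2 to 24.8 without replicate 1. The structure results were not run with all transcripts, the overlap rule does not bear on values of single lists, and the shared counts have no value in a single replicate. Pileups, at a median of 35 and 36 reads, limit what an absent peak means, since total depth is unknown.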

Other observations

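Stop and start codons were covered by separate peaks in both replicates in 393 of the 1734 genes with a shared stop-codon peak (22.7%). In 397 of the 1734 genes (22.9%) the stop-codon peak was the only peak on a canonical exon in replicate 1, and in 323 (18.6%) in replicate 2. At 1000 nt upstream of the stop codon, 7.09% of 14236 transcripts were covered in replicate 1 and 8.47% in replicate 2, and at 1000 nt downstream 9.06% and 7.05% of 9956 transcripts were covered. These values describe the lists and were not tested.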
